A study of Mus musculus with 24 samples.

Results

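Gene expression in corticothalamic projection neurons (Tle4 CThPN) was compared between P21 and P48, the last interval of a time course of 6 ages from E18.5. The neurons came from mice that the labels call C57BL/6 and the methods place on a mixed C57BL/6J background, of the genotype Tle4-2A-CreERT2:Ai14, in which the Tle4 locus drives a tamoxifen-dependent Cre recombinase and Ai14 supplies a Cre-dependent tdTomato reporter. Per the study's methods, 4-hydroxytamoxifen was given to the pregnant mother late in gestation, so a cell was marked for good by recombination before birth, whatever it expressed later. All groups carried Ai14 and received this treatment, and the callosal projection neurons set beside them (Cux2 CPN) carried Cux2-CreERT2 in place of the Tle4 allele. Somatosensory cortex with part of motor cortex was dissociated with papain, tdTomato+ cells were sorted, and each library was a pool of animals of both sexes. The labels give 12 U/ml of papain for every group, whereas the methods give a higher concentration at P21 and P48 than at younger ages and the same one at these 2 ages.

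The comparison used 4 of the 24 RNA-seq libraries, 2 at P21 and 2 at P48. The deposited table holds 1 value per gene and group in FPKM (fragment counts scaled by transcript length and by the mapped fragments of a library), computed by the authors over both libraries, so every value below stands for a group and has no error, replicate check or test. Change means the difference of log2(FPKM + 1), P48 minus P21, and a gene was called higher or lower when this reached 1 or -1. Of the 9767 rows, 118 were left out for their symbol (microRNAs, small nucleolar RNAs and clone names), 26 were predicted genes listed at 0 in all columns of a class, and 2003 were under 10 FPKM at both ages, which left 7620 rows.

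Corticothalamic neurons are the glutamatergic cells of layer 6 that project to the thalamus and send collaterals to the thalamic reticular nucleus and to layer 4. They set the gain of thalamic relay, and in the adult they are excited by acetylcholine through nicotinic receptors that contain the α5 subunit. Between weaning and adulthood the mouse cortex loses much of its developmental plasticity, completes most of its myelination and accumulates methylated cytosine outside CG dinucleotides in neurons, a mark written by the methyltransferase Dnmt3a.

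Few genes differed between P21 and P48. Of the 7620 rows, 47 (0.617%) were higher at P48 and 54 (0.709%) were lower, while 7190 (94.4%) lay within 0.5 of no change, and the median change was -0.01. Of the 47 higher rows, 30 reached 10 FPKM at P48 and not at P21, and of the 54 lower rows, 35 reached it at P21 and not at P48. Without the 28 rows whose annotated exons total up to 300 nt, 39 were higher and 48 lower of 7592 longer rows, 44 of which have no annotated length. The preceding interval, P7 to P21, had 944 higher and 734 lower of 8054 such rows under the same rule, and P3 to P7 had 114 higher and 59 lower of 7493. These intervals share a group with their neighbours, and the numbers are given side by side only as a scale. At the threshold, Rims3 lay just inside with a change of 1.00 (6.37 to 13.8 FPKM) and Map3k6 just outside with 0.95 (4.73 to 10.1 FPKM). On the other side, Apoe lay just inside with -1.004 (607 to 302 FPKM) and Ramp2 just outside with -0.996 (11.0 to 5.02 FPKM).

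**Figure D1:**
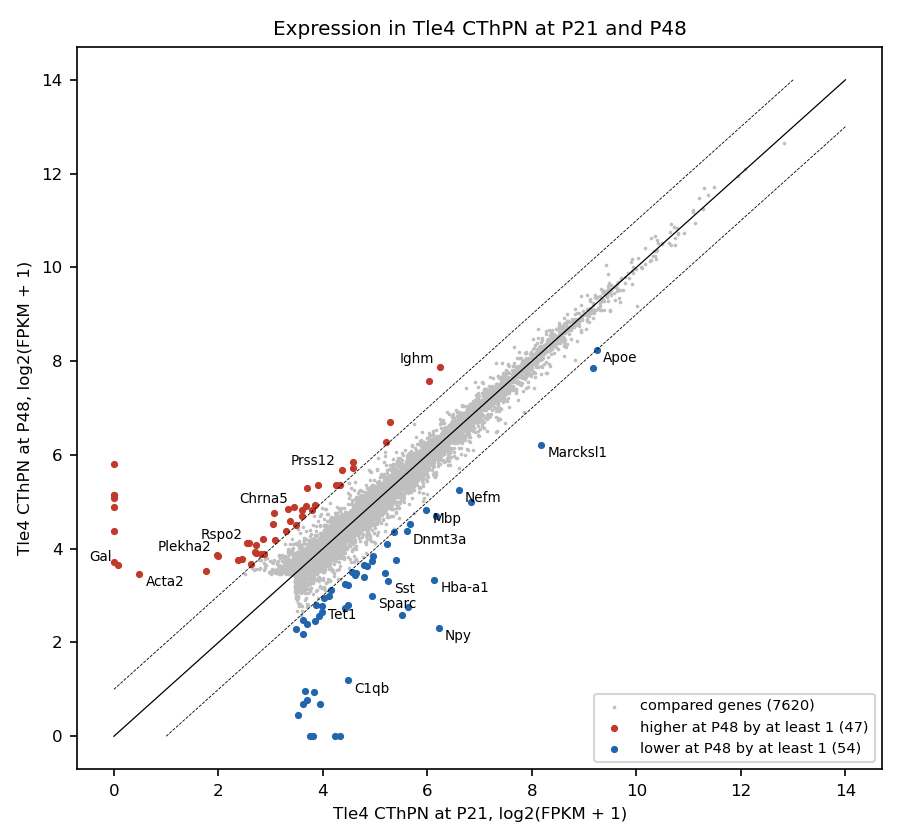
Level of each of the 7620 compared genes in Tle4 CThPN at P21 (horizontal axis) and P48 (vertical axis), both as log2(FPKM + 1), with 1 point per gene and group value. The solid line marks equal levels and the dashed lines a change of 1 or -1; the 47 genes above the upper dashed line (red) and the 54 below the lower one (blue) lie mostly at low and middle levels, with Ighm, Marcksl1 and Apoe among the exceptions.

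The genes that define the class were near their P21 levels at P48. Of the 30 corticothalamic layer 6 markers, 25 were in the table and 22 were compared, of which 1 was higher, 0 were lower, and the median change was -0.02. Tle4, the corepressor whose locus drives the Cre, was at 90.6 FPKM at P21 and 75.02 at P48, against 6.18 and 7.15 in Cux2 CPN. Foxp2, a transcription factor of layer 6, was at 37.4 FPKM at both ages. Syt6, a synaptotagmin, went from 59.2 to 57.4 FPKM, and Fezf2, a regulator of corticofugal identity, from 100.2 to 78.6. These levels put both groups on the corticothalamic side, since Foxp2 and Syt6 were under 1 FPKM in Cux2 CPN at both ages. The marker higher at P48 was Sulf1, described with the other rising genes, and the marker with the most negative change was Lypd1, which binds and modulates nicotinic receptors, at 157 FPKM at P21 and 88.9 at P48 (change -0.81). Cux2 itself was at 1.34 FPKM at P21 and 0.61 at P48. The summed level of the 25 markers was 6298 FPKM at P21 and 6071 at P48, with 824 and 856 in Cux2 CPN.

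The glutamatergic markers were as stable, with 0 of 14 compared genes past the threshold and a median change of 0.02. Slc17a7, the vesicular glutamate transporter of cortical neurons, was at 1016 FPKM at P21 and 1003 at P48. Snap25, a presynaptic protein of vesicle fusion, was at 2495 and 3324 FPKM. Markers of layer 6b, the thin sheet of cells under layer 6, gave 2 higher of 5 compared, namely Cplx3 and Nr4a2, with a list median of 0.59, which was 0.06 with a minimum of 30 FPKM.

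The receptor with the clearest increase was Chrna5, the nicotinic α5 subunit (ENSMUSG00000035594.8, chr9:54828687-54855586, plus strand, build NCBIM37). It was at 2.09, 1.34, 1.52 and 2.39 FPKM at E18.5, P1, P3 and P7, then at 9.94 at P21 and 28.6 at P48, a change of 1.44. In Cux2 CPN it was at 0.03 and 0.14 FPKM at the last 2 ages. Chrna5 was thus low through P7, and most of its level was reached after P21. It was the only one of 11 neuromodulator receptors past the threshold, followed by Adra1b, an α1 adrenergic receptor, which went from 21.7 to 41.0 FPKM (0.89), and the list median was -0.07.

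Rspo2, a secreted protein that potentiates Wnt signalling (chr15:42852357-43002364, minus strand), was at 9.57, 3.56, 2.72 and 2.196 FPKM from E18.5 to P7, 5.01 at P21 and 16.3 at P48, a change of 1.52. Prss12, the synaptic protease neurotrypsin that cleaves agrin, was between 8.38 and 20.3 FPKM at the first 4 ages, 19.5 at P21 and 50.5 at P48 (1.33). Sulf1, which removes 6-O-sulfate from heparan sulfate, was between 8.60 and 12.96 FPKM up to P7, 9.32 at P21 and 22.998 at P48 (1.22). Prss12 was therefore level from P3 to P21 and Sulf1 from E18.5 to P21, and all 3 genes had their highest value at P48. In Cux2 CPN, Prss12 was at 4.00 and 2.85 FPKM and Sulf1 at 0.43 and 0.20 at P21 and P48. Wisp1, a matricellular protein of the CCN family, went from 2.39 to 10.5 FPKM (1.77), while its Cux2 CPN values were 6.01 and 2.96. Col6a1, a chain of collagen VI, went from 12.8 to 27.5 FPKM (1.05). Gal, which encodes the neuropeptide galanin, was between 0.45 and 1.51 FPKM up to P7, 0.05 at P21 and 11.5 at P48, and was listed at 0 in Cux2 CPN at both late ages. Its change of 3.57 was the largest increase of any protein-coding gene, from a level close to 0.

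Synaptic genes included increases. Cplx3, a complexin that binds the assembled fusion complex, was at 1.95, 10.7, 44.6 and 82.9 FPKM from E18.5 to P7, at 11.1 at P21 and at 27.2 at P48 (1.22), so its P48 level stayed under that of P7. Rims3, of the active zone, went from 6.37 to 13.8 FPKM. These were the 2 genes past the threshold among 42 synaptic vesicle and release genes, whose median change was 0.03. Of all 7620 rows, 47 (0.617%) were higher. Outside the lists, Necab2, a neuronal calcium-binding protein, went from 7.25 to 22.2 FPKM (1.49), with 5.18 and 2.99 in Cux2 CPN. N4bp3, a binding partner of the ubiquitin ligase Nedd4, increased over every age from 5.26 FPKM at E18.5 to 13.9 at P21 and 40.2 at P48 (1.46), against 1.15 and 1.80 in Cux2 CPN.

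The highest level among the increases belonged to Ighm, the constant region of the immunoglobulin μ heavy chain (chr12:114659078-114660941, minus strand). Ighm was at 0.51 FPKM or less at the first 4 ages, 74.99 at P21 and 235 at P48, a change of 1.63. In Cux2 CPN it was at 0.70 and 0.68 FPKM. The B cell genes Cd79a, Cd79b, Ms4a1, Cd74, Pax5 and Igkc were not among the rows of the table, which lists genes reaching 10 FPKM in some group. Blnk, an adaptor of B cell receptor signalling, was among them, at 0.29 FPKM or less up to P7, 15.9 at P21 and 21.5 at P48, with 4.37 and 7.29 in Cux2 CPN at the last 2 ages. Ighg2c, an immunoglobulin γ constant region, stayed under the 10 FPKM minimum at 4.04 and 9.19 FPKM, with 4.97 and 11.6 in Cux2 CPN. Krt80, a keratin, was at 0.05 FPKM or less up to P7, 12.0 at P21 and 38.5 at P48 (1.61), and Ly6d, a cell surface protein, was at 0.26 FPKM or less up to P7, 4.86 at P21 and 16.3 at P48 (1.56). Both were at 0.03 FPKM or less in Cux2 CPN at P21 and P48. Ighm, Krt80 and Ly6d thus shared an onset after P7, a further increase after P21, and near absence from Cux2 CPN.

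**Figure D2:**
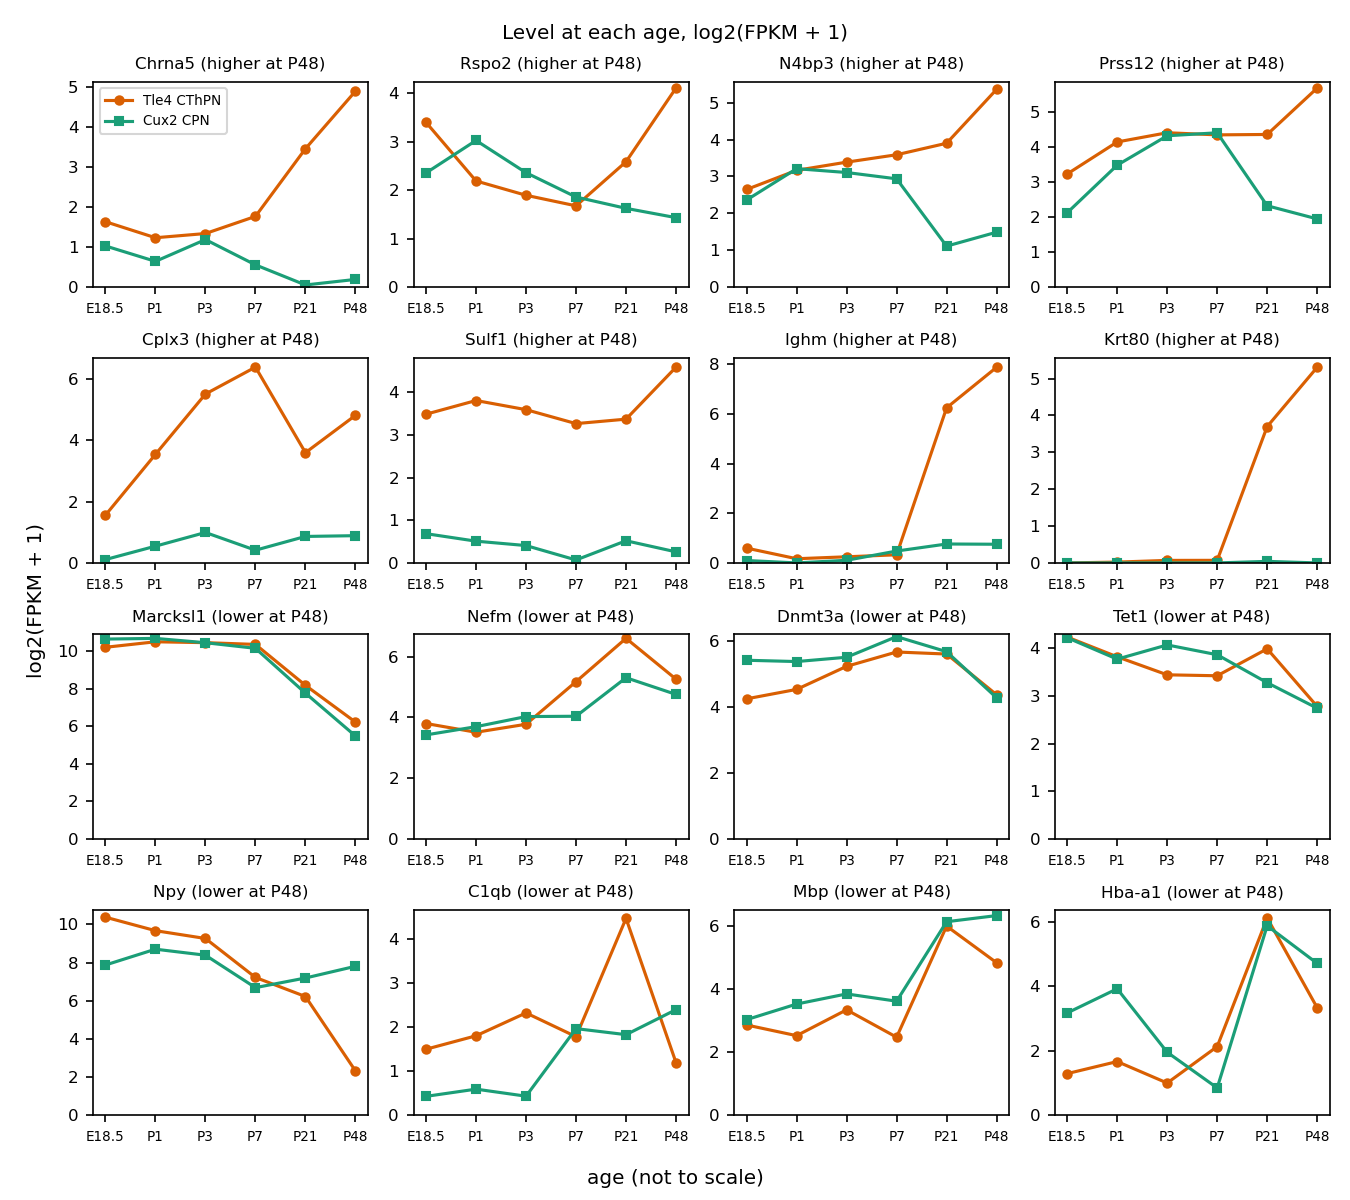
Level of 16 genes at the 6 ages (horizontal axis, not to scale) as log2(FPKM + 1), with a circle for Tle4 CThPN and a square for Cux2 CPN, each the group value over 2 libraries. Chrna5, Ighm and Krt80 climb from P7 through P48 in Tle4 CThPN alone of the pair, Marcksl1 and Dnmt3a are lower at P48 in both classes, and C1qb, Mbp and Hba-a1 peak at P21 in Tle4 CThPN.

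Further single genes were higher. Plekha2, a phosphoinositide-binding adaptor, went from 2.95 to 13.6 FPKM (1.88) and Wwox, an oxidoreductase with WW domains, from 7.41 to 26.1 (1.69). Crip1, a small LIM domain protein, was between 12.9 and 23.6 FPKM up to P7, 2.97 at P21 and 13.4 at P48 (1.86), a return to the level of the first ages. Acta2, the smooth muscle actin of vessel walls, went from 0.40 to 10.1 FPKM (2.98). Acta2 was the only member of the endothelial, pericyte and blood list that was higher at P48. Deptor, an inhibitor of mTOR, went from 7.48 to 17.3 FPKM (1.11). Among genes named after their values were seen, Ccnd1, cyclin D1, went from 4.18 to 12.4 FPKM (1.38), Lsp1, an actin-binding protein, from 22.8 to 51.7 (1.15) and Nnat, the imprinted gene neuronatin, from 5.52 to 14.3 (1.23), the last after 283 FPKM at E18.5.

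Of the 39 longer genes that were higher at P48, 23 (59%) were under 10 FPKM at each of the first 4 ages, against 729 (9.6%) of the 7592 longer rows. The 48 longer genes lower at P48 had a like share, 28 (58.3%). Many of these genes reached 10 FPKM at only 1 of P21 and P48, so low earlier levels come in part from the minimum itself. In Cux2 CPN, 8 of the 39 (20.5%) were under 1 FPKM at both P21 and P48, against 30 (0.395%) of the same 7592. The age of the highest level was P48 for 32 of the 39, which the selection partly fixes, against 1844 of the 7592, and E18.5 for 5, against 1333.

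Among genes outside the marker lists of other cell types, the largest decrease of a gene named by the rule was that of Marcksl1, a MARCKS-like protein that ties the membrane to actin in growing processes (chr4:129190825-129193229, plus strand). Marcksl1 was between 1178 and 1443 FPKM up to P7, 288 at P21 and 73.5 at P48, a change of -1.96. Cux2 CPN had 216 and 43.7 FPKM, a change of -2.28. The decrease therefore went on after P21 in both classes. It was the only one of 24 early postmitotic genes that was past the threshold, and the list median was -0.18. Cd24a, a glycoprotein of immature neurons, was at 769 FPKM at E18.5, 96.8 at P21 and 51.4 at P48 (-0.90), and Sox4, a transcription factor of newborn neurons, was at 438, 18.7 and 10.8 FPKM (-0.74).

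A writer and an eraser of cytosine methylation were both lower at P48. Dnmt3a, which writes de novo methylation (chr12:3806007-3914443, plus strand), was at 17.9, 22.1, 36.5 and 49.7 FPKM from E18.5 to P7, 47.5 at P21 and 19.6 at P48, a change of -1.23. Cux2 CPN had 50.0 FPKM at P21 and 18.4 at P48, a change of -1.40. Tet1, which oxidizes 5-methylcytosine (chr10:62267318-62361866, minus strand), was at 17.8 FPKM at E18.5, 9.71 at P7, 14.8 at P21 and 5.85 at P48 (-1.21). Dnmt3a was lower at P48 in both classes, and Tet1 passed the threshold in Tle4 CThPN only, with 8.68 and 5.68 FPKM in Cux2 CPN (-0.53), a difference between classes that was not tested. They were the 2 of 13 DNA methylation and methyl-CpG genes past the threshold, with a list median of -0.16, which was -0.05 without a minimum and -0.06 with a minimum of 30 FPKM. Dnmt1, the maintenance methyltransferase, was at 15.02 and 13.1 FPKM.

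The promoters of Cplx3 and Dnmt3a are printed because they are the higher and the lower gene, among those described above, whose window holds the E-box CACGTG upstream of the start site. Each runs from 250 bases before to 50 after a start site of the gene in RefSeq on GRCm38.p6, a later build than that of the FPKM. The capitals mark the E-box. The window of Cplx3 is chr9:57606232-57606531 on the minus strand, with E-boxes 85 and 55 bases before the start, and that of Dnmt3a is chr12:3891494-3891793 on the plus strand, with an E-box 80 bases before the start. The Dnmt3a window lies within the span given above for that gene on NCBIM37. No coordinates were converted, so it may surround an internal start site.
Cplx3: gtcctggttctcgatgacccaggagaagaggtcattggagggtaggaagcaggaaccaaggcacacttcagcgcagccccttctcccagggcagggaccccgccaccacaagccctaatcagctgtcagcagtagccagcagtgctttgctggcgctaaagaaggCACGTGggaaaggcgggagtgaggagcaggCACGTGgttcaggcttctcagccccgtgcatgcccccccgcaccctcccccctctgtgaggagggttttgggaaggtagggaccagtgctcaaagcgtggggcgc
Dnmt3a: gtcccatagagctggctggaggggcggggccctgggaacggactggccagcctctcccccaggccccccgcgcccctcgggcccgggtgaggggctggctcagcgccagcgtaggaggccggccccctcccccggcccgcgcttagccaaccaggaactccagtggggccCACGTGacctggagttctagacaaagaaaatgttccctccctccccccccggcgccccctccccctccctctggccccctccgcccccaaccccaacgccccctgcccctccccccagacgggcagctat
The E-box was held by 3 of the 19 higher genes with a promoter (15.8%), by 1 of the 33 lower ones (3.03%), by 713 of 5674 compared genes (12.6%) and by 2187 of all 27025 promoters (8.09%). The cAMP response element TGACGTCA was held by 2 of the 33 lower genes (6.06%), Sst at 48 and Zdbf2 at 59 bases before the start, by 4.16% of the compared genes and by 2.03% of all promoters. Both motifs read the same on either strand. The D-box TTATGTAA, the CArG box and the sterol regulatory element were in 0 promoters of the genes past the threshold.

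Structural and guidance genes of the axon also included decreases. Nefm, the medium neurofilament subunit (chr14:68700647-68742903, minus strand), was at 12.9, 10.4, 12.7 and 35.1 FPKM from E18.5 to P7, 96.0 at P21 and 37.2 at P48, a change of -1.34. Nefm was thus back near its P7 level, and Cux2 CPN went from 38.5 to 26.0 FPKM (-0.55). Nefm and Marcksl1 were the 2 of 31 genes of the list of neurofilaments, tubulins and axonal cytoskeleton past the threshold, and the list median was -0.14. Sema6a, a transmembrane semaphorin, was between 18.9 and 27.5 FPKM up to P7, 11.9 at P21 and 4.24 at P48 (-1.30). It was the only one of 59 axon guidance and adhesion genes past the threshold, while 44 of the 59 had changes below 0 and the median was -0.23 (-0.30 in Cux2 CPN). Gap43, the growth cone protein, was at 283 and 320 FPKM. Among genes named after their values were seen, Apc, which restrains Wnt signalling, went from 36.5 to 16.1 FPKM (-1.13) and Slc24a3, a sodium, calcium and potassium exchanger, from 35.3 to 10.2 (-1.69). Camk1g, a calcium- and calmodulin-dependent kinase, went from 13.6 to 5.95 FPKM (-1.07), with 61.2 and 28.1 in Cux2 CPN (-1.09).

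Many of the largest decreases, in cells sorted for tdTomato, were genes from the marker lists of other cell types. Of the 54 lower rows, 24 belonged to the interneuron, astrocyte, oligodendrocyte lineage, microglia and macrophage, or endothelial, pericyte and blood lists, which together hold 47 compared rows. Of the 47 higher rows, 1 did. Since a gene is listed only where it reaches 10 FPKM in some group, and was compared only where it did so at P21 or P48, a marker that entered through P21 alone was bound to be lower at P48, and the counts below do not by themselves support a decrease. In bulk samples, fewer cells of a type and less RNA of that type per cell cannot be told apart, and the part of these cells in the other decreases was not tested.

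Microglia are the resident macrophages of the brain. Of the 20 microglia and macrophage markers, 8 were in the table and compared, 7 were lower, and the median change was -2.92. C1qb, a chain of the complement protein C1q, was at 1.82, 2.49, 4.01 and 2.44 FPKM from E18.5 to P7, 21.3 at P21 and 1.28 at P48 (-3.29). C1qa (-3.26), C1qc (-2.89), Ctss (-3.07), Tyrobp (-2.93) and Laptm5 (-2.92) had P21 levels between 10.6 and 14.5 FPKM and P48 levels between 0.38 and 0.92. Of the 8 genes, 7 reached 10 FPKM in no other of the 12 groups than Tle4 CThPN at P21, so a P21 peak was fixed by the selection, which also shaped their count and median. The summed level of the 8 genes was between 28.9 and 48.2 FPKM up to P7, 123 at P21 and 26.0 at P48, and in Cux2 CPN 24.9 at P21 and 37.3 at P48. The P21 sum carries the same selection, while the P48 sum was under those of all of the first 4 ages. Outside P21, most of the Tle4 CThPN sum came from the 1 gene that reached 10 FPKM at both P21 and P48. The C1q chains, Ctss, Tyrobp and Laptm5 were also lowest at P48. Cd68, another member, was at 0.59 FPKM at E18.5 and 4.55 at P48.

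Blood and vessel genes were also lower at P48. Of the 21 listed markers, 10 were in the table and compared, 7 were lower and 1 higher, with a median of -1.40, and 6 of the 10 reached 10 FPKM at P21 and not at P48. Hba-a1, which encodes α-globin, was at 3.37 FPKM or less up to P7, 69.1 at P21 and 9.10 at P48 (-2.79). Hba-a2 went from 44.9 to 4.99 FPKM (-2.94), Hbb-b1 from 48.8 to 5.76 (-2.88) and Hbb-b2 from 11.6 to 0.96 (-2.68). The globin genes of each pair are nearly identical, so reads may be split between them and the single values are uncertain. The 4 globins were also lower in Cux2 CPN, where Hba-a1 went from 58.2 to 25.3 FPKM (-1.17). Cldn5, a tight junction protein of endothelial cells, went from 14.2 to 4.90 FPKM (-1.37). The sum over the 10 genes was between 23.1 and 43.8 FPKM up to P7, 267 at P21 and 77.6 at P48, against 236 and 107 in Cux2 CPN. In Tle4 CThPN the 4 globins made up most of the sum at P21 and the smaller part at P48, so most of its fall was theirs. Globins made up most of the Cux2 CPN sum at both ages, where Cldn5 was at 2.15 and 1.91 FPKM and Ly6c1, of endothelial cells, at 3.40 and 5.59, and the Cux2 CPN list median was 0.17.

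Oligodendrocyte genes gave 6 lower of 9 compared (26 listed, 11 in the table) with a median of -1.13, and 7 of the 9 reached 10 FPKM at both ages. Mbp, the myelin basic protein, was between 4.51 and 9.06 FPKM up to P7, 62.2 at P21 and 27.3 at P48 (-1.16), while Cux2 CPN went from 68.6 to 78.7. Mag, Mog and Mobp, proteins of the myelin sheath, had changes of -1.13, -1.19 and -1.11. Olig1, a transcription factor of the lineage, was at 14.8 and 5.30 FPKM (-1.32). The sum over the 11 genes in the table was 364 FPKM at P21 and 158 at P48 in Tle4 CThPN, against 177 and 260 in Cux2 CPN. The sums thus moved in opposite directions in the 2 classes.

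Astrocyte genes moved less. Of 17 compared (22 listed), 2 were lower, Aldh1l1, an enzyme of folate metabolism (26.5 to 9.56 FPKM, -1.38), and Apoe, the lipid carrier of astrocytes and microglia, and the median was -0.38. The sum was between 112 and 310 FPKM up to P7, 1736 at P21 and 1287 at P48, so it stayed well over the early ages. Apoe alone made up most of the decrease of this sum after P21. In Cux2 CPN the sum was 486 and 499. Sparc, a matricellular protein of glia and endothelium that was counted with the extracellular matrix genes, went from 29.7 to 6.98 FPKM (-1.94).

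Of 30 interneuron markers, 19 were in the table and 3 were compared, of which 2 were lower, with a median of -1.92. Both of these reached 10 FPKM at P21 and not at P48, and over all 19 genes, without a minimum, the median was -0.54. Npy, neuropeptide Y (chr6:49772709-49779506, plus strand), was at 1334, 816, 614 and 148 FPKM from E18.5 to P7, 73.4 at P21 and 3.97 at P48, a change of -3.90 and the largest decrease of a gene named by the rule. Sst, somatostatin, was at 36.8 FPKM at P21 and 8.96 at P48 (-1.92). Per the study's methods, the Cux2-CreERT2 line was reported to mark some interneurons too, and the authors judged the effect on their data minimal. In Cux2 CPN, Npy went from 145 to 222 FPKM and Sst from 283 to 538. Npy had thus declined at every age in Tle4 CThPN, from a level at E18.5 above that of Cux2 CPN (233 FPKM) and with Gad1 at 0.97 FPKM at that age, whereas Sst was highest at P21. Gad1 and Gad2, the enzymes of GABA synthesis, were under 10 FPKM and were not compared, at 6.95 and 3.72 FPKM at P21 and 2.00 and 0.79 at P48. The sum over the 19 genes was 173 FPKM at P21 and 44.0 at P48, against 541 and 908 in Cux2 CPN. In Tle4 CThPN, Npy and Sst made up most of this sum at P21 and most of its decrease, and Npy most of it up to P7. No gene of these 5 marker lists that was in the table was at 0 in Tle4 CThPN at P21 or P48.

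**Figure D3:**
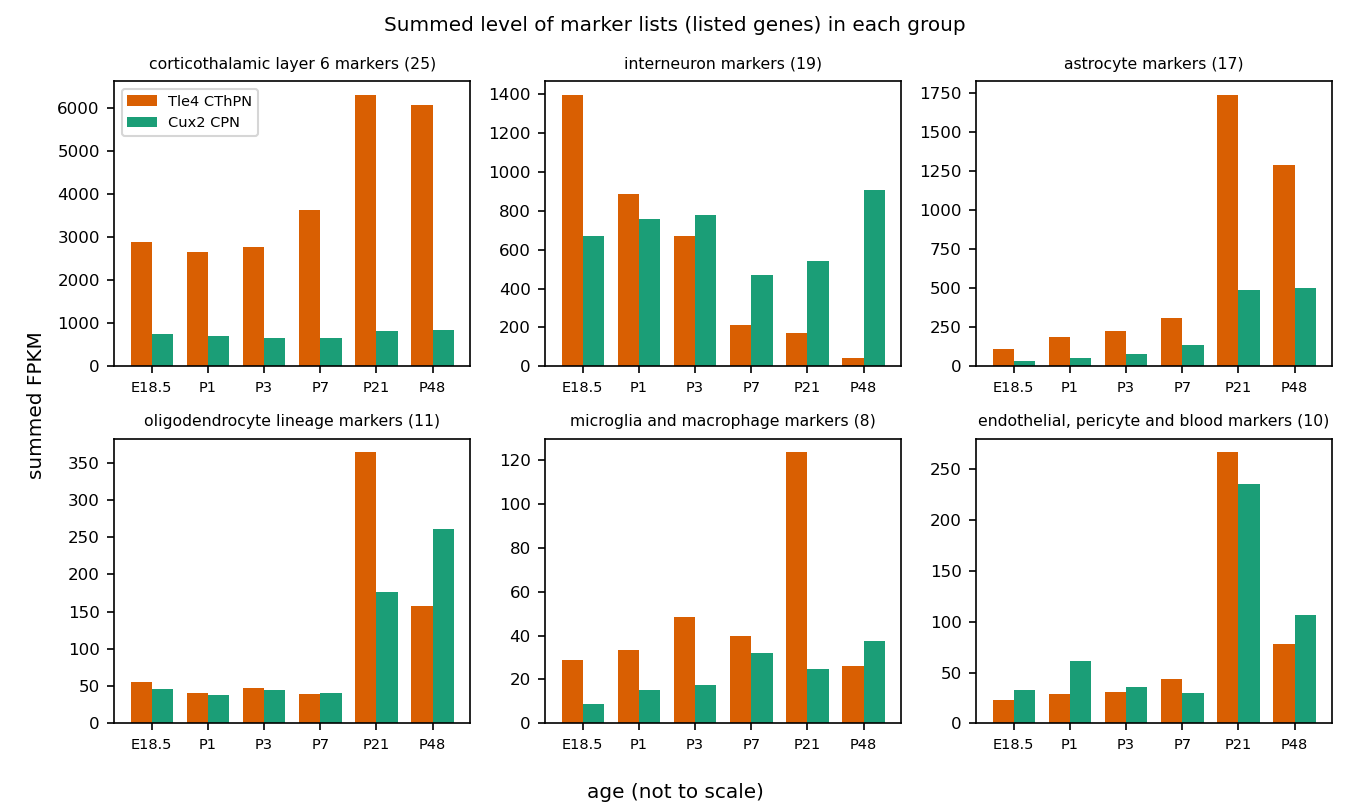
Summed FPKM of 6 marker lists (number of genes in the table in brackets) at the 6 ages in Tle4 CThPN and Cux2 CPN, with 1 bar per group value, no error bars, and its own vertical scale for each list. The corticothalamic sum is level from P21 (6298) to P48 (6071), whereas the microglia sum goes from 123 to 26.0 and the oligodendrocyte sum from 364 to 158 in Tle4 CThPN. In Tle4 CThPN, Npy makes up most of the interneuron sum up to P7, and globins most of the endothelial, pericyte and blood sum at P21.

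The lists of glutamate and GABA receptors and ion channels had no member past the threshold. Of 25 glutamate receptor genes compared, 0 were past the threshold, 19 had changes below 0 and the median was -0.29, beside -0.01 over all compared rows and -0.33 in Cux2 CPN. Neto2, an auxiliary subunit of kainate receptors, was at 125 FPKM at E18.5, 52.6 at P21 and 26.1 at P48 (-0.98). Grin2a, the NMDA receptor subunit that gains weight during maturation, was at 23.8 FPKM at P21 and 12.8 at P48 (-0.84), and Grin2b, the subunit that prevails early, at 21.1 and 19.6. The 17 GABA receptor and chloride transporter genes had 0 past the threshold and a median of -0.12, with Gabra5 at 42.2 and 57.5 FPKM (0.44) and Gabrd at 38.9 and 31.1 (-0.32). The 14 sodium and calcium channel genes had 0 past it and a median of -0.06, which was -0.15 without a minimum and 0.01 with a minimum of 30 FPKM, with Scn4b, a sodium channel β subunit, at 14.02 and 23.3 FPKM (0.69) and Cacnb4, a calcium channel β subunit, at 261 and 171 (-0.61). The 40 potassium and HCN channel genes had 0 past it and a median of -0.09, with Kcnk9, a leak channel, at 13.1 and 7.19 FPKM (-0.78) and Kcnn2, a calcium-activated channel, at 40.9 and 26.1 (-0.63).

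Plasticity genes were similar. The 44 postsynaptic scaffold and plasticity genes had 0 past the threshold and a median of -0.06, with Rgs14, which limits G protein and MAP kinase signalling, at 16.6 and 30.6 FPKM (0.85) and Rgs4, of the same family, at 452 and 260 (-0.80). Of 14 extracellular matrix and perineuronal net genes, Sparc was lower, the median was -0.22, and Hapln4, a link protein of perineuronal nets, was at 15.6 and 27.9 FPKM (0.80). Among the 26 neuropeptides, growth factors and their receptors, Npy and Sst were lower beside the higher Rspo2, with a median of -0.06. Gal is not in that list, nor are Wisp1 and Col6a1 in the matrix list. Of 8 layer 5 markers, Deptor was higher and Cntn6, an adhesion molecule, lower (23.6 to 9.84 FPKM, -1.18), with a median of -0.32, which was -0.54 without a minimum and -0.09 with a minimum of 30 FPKM. The 7 callosal and upper layer markers compared had 0 past the threshold and a median of -0.07, which was -0.28 over all 24 in the table without a minimum and 0.05 with a minimum of 30 FPKM, with Enpp2, which makes lysophosphatidic acid, at 23.4 and 12.5 FPKM (-0.85) and Cdh13, a cadherin, at 35.3 and 62.1 (0.80).

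**Figure D4:**
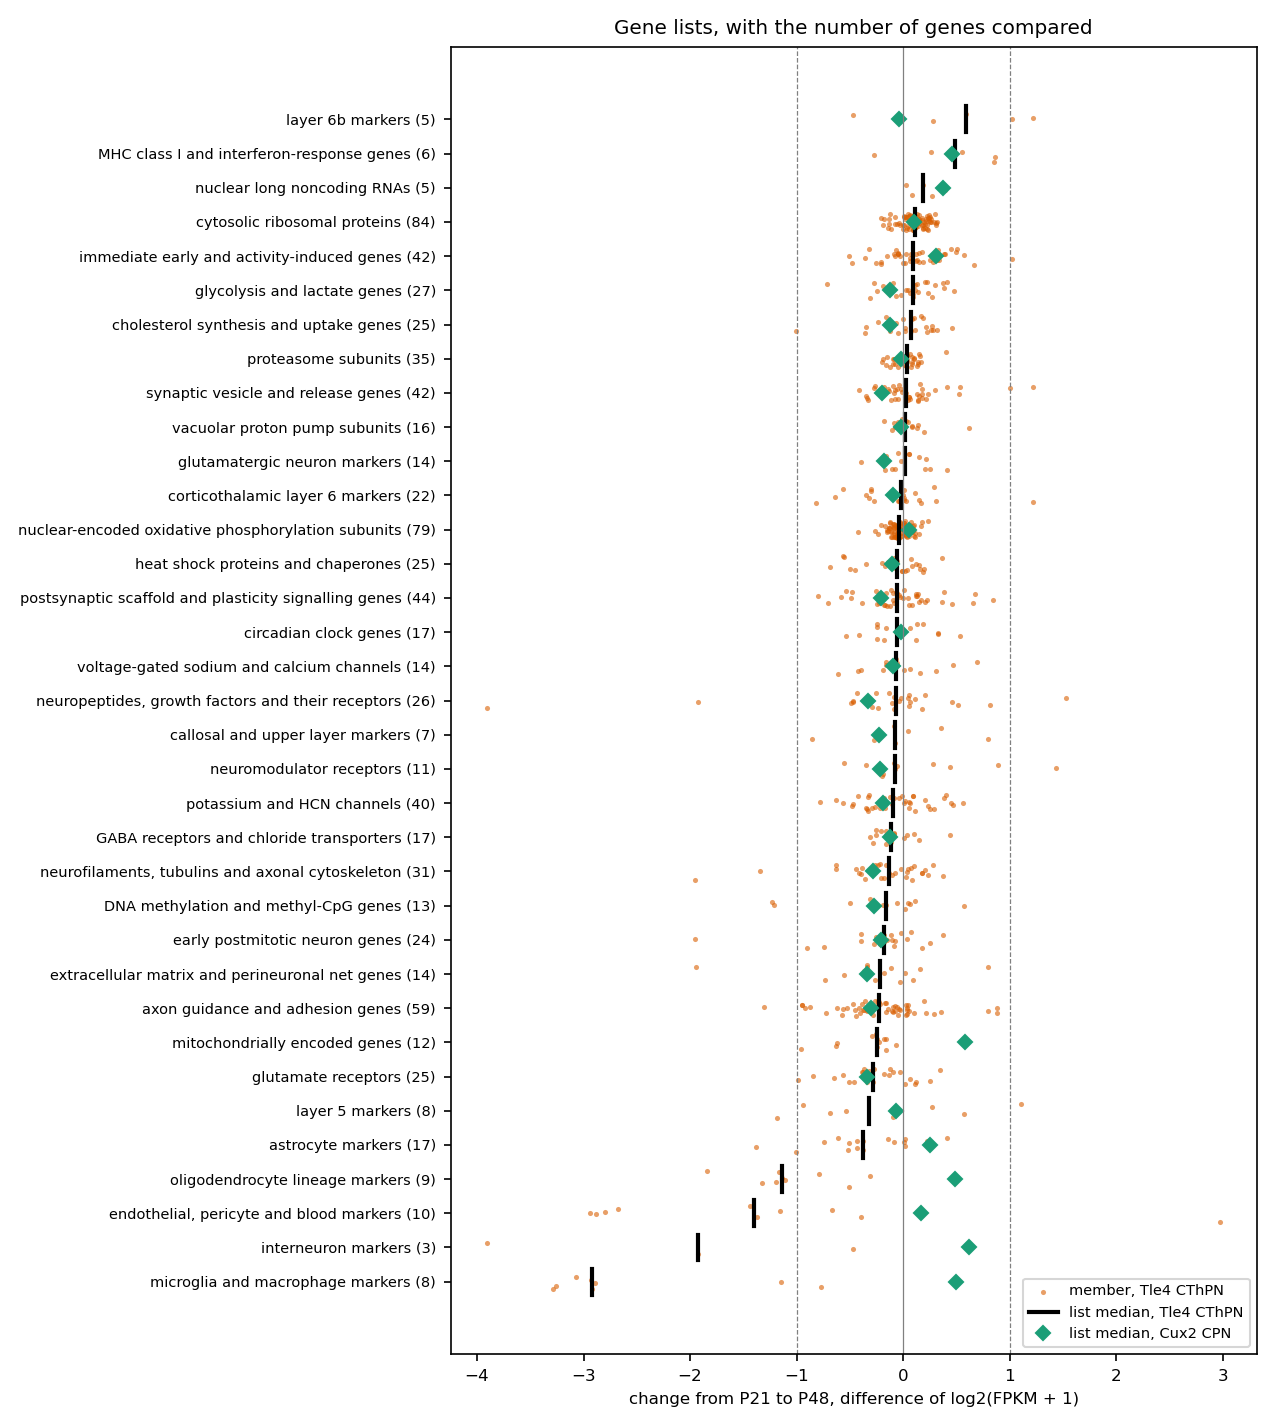
Change from P21 to P48 of each compared member (orange point) of the gene lists with at least 3 compared genes, with the list median in Tle4 CThPN (black bar) and in Cux2 CPN (green diamond), as differences of log2(FPKM + 1). Points are spread vertically at random within a list. Most medians in Tle4 CThPN lie within 0.5 of 0, and those of microglia, interneuron, endothelial and blood, and oligodendrocyte markers lie under -1, where 7 of 8 microglia and 2 of 3 interneuron genes reached 10 FPKM at P21 and not at P48, and over all 19 interneuron genes the median was -0.54.

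Immediate early genes, which neurons switch on with activity and during dissociation, had 1 of 42 higher in Tle4 CThPN, Nr4a2 (10.2 to 21.6 FPKM, 1.02), and a median of 0.09. In Cux2 CPN 9 of the 42 were higher, with a median of 0.31. Of all 7620 rows, 0.617% were higher in Tle4 CThPN and 0.774% in Cux2 CPN. The difference between the classes in this list was not tested. Fos was at 123 and 150 FPKM in Tle4 CThPN and at 145 and 307 in Cux2 CPN. The 25 heat shock and chaperone genes had 0 past the threshold and a median of -0.06, with Sdf2l1 (32.1 to 19.6 FPKM, -0.68) and Pdia4 (56.8 to 38.1, -0.57) of the endoplasmic reticulum as the most changed. The 17 clock genes had 0 past it and a median of -0.06, with Per2 at 10.2 and 6.74 FPKM (-0.54) and Bhlhe40 at 18.9 and 27.9 (0.53).

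Of the lists of genes that every cell uses, none had a member past the threshold. Of 84 cytosolic ribosomal protein genes, 69 had changes above 0, 0 were past the threshold and the median was 0.11, with Rpl38 at 322 and 402 FPKM (0.32) and Rps25 at 173 and 214 (0.31). The 79 nuclear-encoded oxidative phosphorylation subunits had 0 past it and a median of -0.04, with Atp5g1 at 721 and 539 FPKM (-0.42) and Sdhc at 77.4 and 64.1 (-0.27). All 12 mitochondrially encoded genes had changes below 0 in Tle4 CThPN, with a median of -0.24 and the most negative values for mt-Atp8 (24.6 to 12.2 FPKM, -0.96) and mt-Nd3 (140 to 90.1, -0.63). In Cux2 CPN the median was 0.58 and 10 of the 12 were above 0, whereas mt-Atp8 and mt-Nd3 were below it (-0.58 and -0.17). The 35 proteasome subunits had a median of 0.03 and 0 past the threshold, with Psmb10 at 55.6 and 73.8 FPKM (0.40) and Psmd9 at 17.3 and 14.995 (-0.20). The 16 vacuolar proton pump subunits had a median of 0.02 and 0 past it, with Atp6v1g2 at 687 and 1054 FPKM (0.62) and Atp6v1a at 172 and 197 (0.20).

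Metabolic and immune lists completed the set. The 27 glycolysis and lactate genes had 0 past the threshold and a median of 0.09, with Slc16a7, a monocarboxylate carrier, at 18.2 and 10.7 FPKM (-0.71) and Pfkfb3, a regulator of glycolysis, at 7.02 and 10.1 (0.47). Of 25 cholesterol synthesis and uptake genes, Apoe was lower and the median was 0.07. The 6 MHC class I and interferon-response genes had 0 past the threshold and a median of 0.49, beside 0.46 in Cux2 CPN, and over all 10 in the table, without a minimum, the median was 0.22. H2-T23 was at 32.4 FPKM at P21 and 59.8 at P48 (0.86) and H2-T22 at 5.44 and 10.7 (0.86). The 5 nuclear long noncoding RNAs had 0 past it and a median of 0.19, with Snhg11 at 185 and 243 FPKM (0.40) and Gas5 at 112 and 136 (0.28). Of the sex-linked genes, 1 was compared, Eif2s3y, at 22.2 and 12.2 FPKM (-0.82), in libraries that pool animals of both sexes.

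In Cux2 CPN the same 7620 rows gave 59 higher (0.774%) and 43 lower (0.564%) at P48, with a median change of -0.08. Across these rows the changes of the 2 classes had a Pearson r of 0.184, as a description over genes measured in separate libraries. Both classes were past the threshold in the same direction for 13 rows, 5 higher and 8 lower. The higher ones included Aifm3, an apoptosis-inducing factor homolog (4.44 to 12.7 FPKM in Tle4 CThPN and 8.17 to 22.2 in Cux2 CPN), and Deptor (7.48 to 17.3 and 4.99 to 11.6). The lower ones included Marcksl1, Dnmt3a, Camk1g and the 4 globins. Of the 39 longer genes higher in Tle4 CThPN, 4 were also higher and 4 were lower in Cux2 CPN, with a median Cux2 CPN change of 0.20, and of the 48 lower ones, 8 were also lower and 3 were higher, with a median of -0.08. The 4 of the 39 that were lower in Cux2 CPN were predicted genes with like courses, described further below.

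Among rows with a unique symbol that is no Gm-number, and leaving aside those of up to 300 nt, the largest gap between the changes of the 2 classes was that of Cisd3, an iron-sulfur protein of mitochondria, at 62.3 and 69.5 FPKM in Tle4 CThPN and at 44.3 and 1428 in Cux2 CPN, where P3 also stood at 1350. Npy and C1qb followed, with gaps of -4.52 and -3.86. In the other direction Gal (3.57), Wisp1 (2.59) and Acta2 (2.49) had the largest gaps among the same rows, followed by Necab2 (2.12) and Ak4 (1.86), an adenylate kinase of mitochondria, at 11.8 and 29.3 FPKM in Tle4 CThPN and 31.3 and 20.1 in Cux2 CPN. These differences between the classes were not tested.

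**Figure D5:**
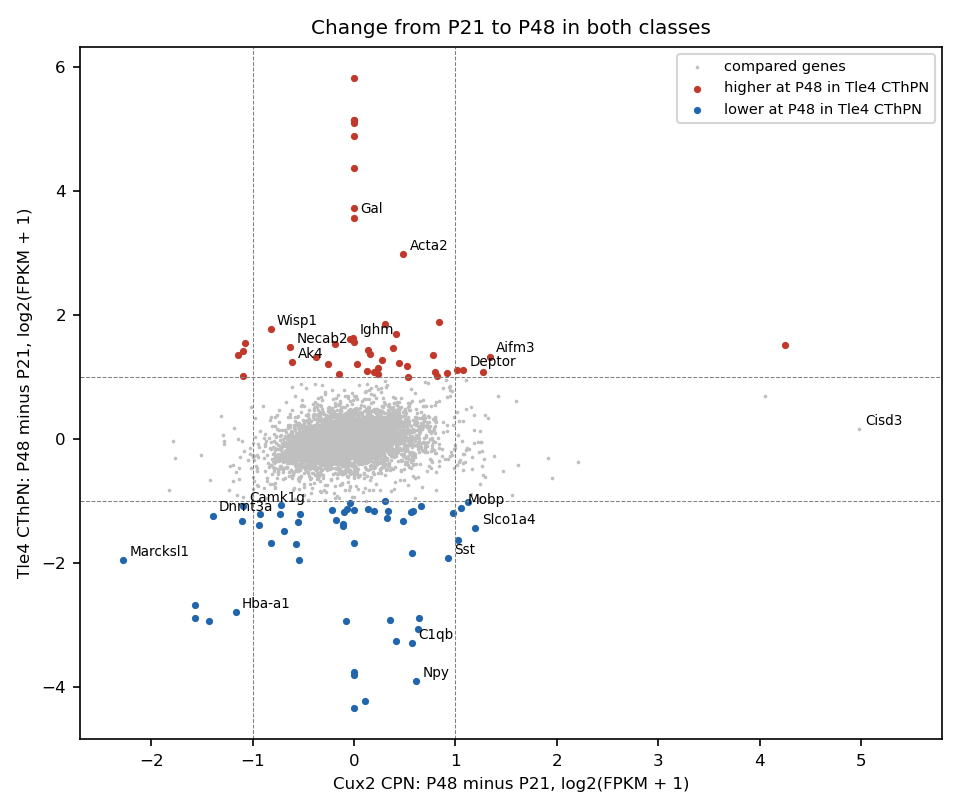
Change from P21 to P48 in Cux2 CPN (horizontal axis) and Tle4 CThPN (vertical axis) of the 7620 compared genes, as differences of log2(FPKM + 1), with dashed lines at 1 and -1. Red and blue points are the 47 higher and 54 lower rows in Tle4 CThPN, and 13 of them lie past the lines in the same direction in both classes, Marcksl1, Dnmt3a and Hba-a1 among them.

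Short transcripts made up part of the extremes. Rows with exons of up to 300 nt were 8 of the 47 higher and 6 of the 54 lower, but 28 of all 7620. Among them, n-R5s76 was listed at 0 at P21 and at 19.7 FPKM at P48, and copies of U6 were listed at 0 and at 33.0 to 55.3 FPKM. Near-identical copies share reads, and these values are uncertain. CT010508.1, a microRNA in the annotation, was likewise listed at 0 at P21 and at 12.2 FPKM at P48.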

How the data were processed

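RNA-seq libraries were prepared from sorted Tle4 CThPN and Cux2 CPN at 6 ages, with 2 libraries for each of the 12 groups. The authors amplified cDNA with SMART-Seq v4, trimmed the paired-end reads, aligned them with TopHat2 (mouse build mm9, which is NCBIM37) and used Cuffdiff for FPKM over both libraries of a group. The deposited FPKM table holds these values, and the log2 values of the report were computed here from the deposited FPKM as log2(FPKM + 1), which understates the change of low genes. Separate library values were not analysed here, so no test was made. The methods give only a lower bound of reads per library, and the reads behind a value cannot be taken from FPKM, so intervals are not given.

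Rows with at least 10 FPKM at P21 or P48 in Tle4 CThPN were compared, after symbols starting with Mir, Snor, SNOR, AC or AL plus digits and Gm-number rows at 0 in all columns of a class were dropped. The threshold was a change of 1 in size. Python 3.11.15, numpy 2.4.6, pandas 2.3.3 and matplotlib 3.10.9 were used. Positions come from GENCODE on NCBIM37, where 7576 compared rows had a match, and 19 symbols of the table had been turned into dates. Promoters come from RefSeq.

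The genes named are the 15 largest rises and 15 largest falls among rows with a unique symbol that is neither a Gm-number, a Rik nor a date, in each of 36 lists up to 6 members past the threshold or, where fewer than 2 passed, the 2 with the largest change, genes the paper names, and the 5 largest class differences in each direction. Genes outside this rule were chosen after their values were seen. The members and the lists were chosen with earlier results of these data known. Alternatives were pseudocounts of 0.1 and 5, median-ratio scaling, 30 FPKM as the minimum or no minimum, limits of 0.5 and 1.5, leaving out short genes and, added after the data were examined, leaving out the other-cell marker lists. The values of some genes of these lists are not reported here.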

Additional observations from a re-analysis of the deposited data

Results flagged for a closer look

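For 8 rows the change from P21 to P48 was past the threshold in opposite directions in the 2 classes, and this difference between the classes was not tested. Those lower in Tle4 CThPN and higher in Cux2 CPN were Slco1a4, an organic anion transporter of brain endothelium (-1.44, against 1.20), Mobp, a protein of the myelin sheath (-1.11, against 1.06), Fut9, which makes the Lewis x sugar epitope (-1.01, against 1.12), and the predicted gene Gm12328 (-1.63, against 1.02). Slco1a4 went from 11.3 to 3.53 FPKM in Tle4 CThPN and from 1.00 to 3.59 in Cux2 CPN. Mobp went from 30.2 to 13.4 and from 15.5 to 33.4 FPKM, and Fut9 from 40.3 to 19.5 and from 4.78 to 11.6.

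Those higher in Tle4 CThPN and lower in Cux2 CPN were the predicted genes Gm10718 (1.36, against -1.14), Gm10800 (1.55, against -1.08), Gm10801 (1.02, against -1.09) and Gm16869 (1.42, against -1.09). Gm10800 was at 627 FPKM at E18.5, 49.1 at P7, 64.1 at P21 and 190 at P48 in Tle4 CThPN, and at 1449, 703, 494 and 233 at these ages in Cux2 CPN. The other 3 had the same order of levels over these 4 ages in both classes. Whether these rows share reads was not tested, so they may not be separate changes.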

How the results depend on the processing

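No paired analysis was possible because each group has 1 value and libraries have no columns of their own, which also leaves no alternative without a replicate. The 47 higher and 54 lower genes became 27 and 31 with a pseudocount of 5, 15 and 19 with a minimum of 30 FPKM, 182 and 248 with a limit of 0.5, and 19 and 23 with a limit of 1.5. Without a minimum, 62 were higher and 83 lower. Without the other-cell marker lists, chosen after the data were examined, 30 were lower and 46 higher. These shifts follow from the construction of each setting, which compares fewer or more genes, moves the limit or damps low values. With a pseudocount of 0.1 the counts were 51 and 62, with median ratios 47 and 53, and without short genes 39 and 48. Of the 92 genes past the threshold with a unique symbol, 49 stayed past it with a pseudocount of 5. No setting other than median ratios could turn a direction, by construction. The counting error of a value is unknown. Some list medians also moved. The microglia median was -1.55 with a pseudocount of 5, and with a minimum of 30 FPKM the interneuron median was -2.91 and the endothelial, pericyte and blood median -2.88. That minimum also moved the medians of the heat shock (-0.03), neuropeptide (-0.12) and cholesterol (0.01) lists by over 1.5 times. Without a minimum, the postsynaptic (-0.09) and clock (-0.03) medians moved as much, and without other-cell markers the neuropeptide median was -0.03.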

Other observations

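Of the 48 longer genes lower at P48, 36 had their highest level of the 6 ages at P21, which the selection partly fixes, against 1653 of the 7592 longer rows. The 48 hold 24 genes that were in none of the other-cell marker lists. Among these were further genes chosen after their values were seen. Cxcl12, a chemokine, went from 21.3 to 5.97 FPKM (-1.68), Cd9, a tetraspanin, from 13.5 to 4.48 (-1.40), and Id3, an inhibitor of basic helix-loop-helix factors, from 21.4 to 8.32 (-1.27). Fabp7, a fatty acid binding protein of radial glia and astrocytes, was at 186 FPKM at E18.5, 15.2 at P21 and 6.67 at P48 (-1.08). Sepp1, a selenium carrier, went from 50.0 to 21.9 FPKM (-1.15).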
